A study of Bos taurus with 6 samples.

Results

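The genes described here encode long-chain acyl-CoA synthetases (ACSL1, ACSL3, ACSL4, ACSL5 and ACSL6) and fatty acid transport proteins (SLC27A1, SLC27A3 and SLC27A4), 8 of the 23475 genes with a value. They were chosen by symbol, and the family was picked because ACSL6 had been seen to be higher in cells given the bta-miR-484 agomir than in cells given the agomir NC. The difference of ACSL6 between the groups is therefore given as a description, without a test. RNA was sequenced from bovine cells of subcutaneous fat, labelled adipocytes and described in the study as preadipocytes isolated from calves, 48 h after transfection. One group of 3 libraries received the bta-miR-484 agomir, a synthetic, stabilised form of this miRNA that increases its amount in the cell, and the other group of 3 libraries received the agomir NC, its negative control. All cells were therefore transfected, and no untransfected group was among the 6 libraries. It is not stated whether the libraries within each group represent separate calves or parallel cultures, so the SD and the p-values measure the spread between samples that may be technical replicates.

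Long-chain fatty acids are chemically inert in the cell until they are joined to coenzyme A. The ACSL enzymes carry out this activation, each with its own preference for fatty acids and its own place in the cell, and the acyl-CoA they make feeds triglyceride and phospholipid synthesis, oxidation in mitochondria and the acylation of proteins. The SLC27A proteins (FATPs) promote the entry of fatty acids into the cell and carry acyl-CoA synthetase activity themselves. In fat, ACSL1 is the isoform best known from mature adipocytes, where it rises with differentiation, and SLC27A1 is the insulin-responsive transporter.

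Values are FPKM, that is, fragment numbers scaled by the length of the transcript and the size of the library, as deposited. Summed over all genes, a library held between 365977 and 379361 FPKM, and the counting error of a value cannot be estimated, since the read depth is not known. The markers fitted cultured stromal cells of fat more than mature adipocytes. Of 12 markers of preadipocytes and stromal cells, the collagen gene COL3A1 was the most abundant, between 7428 and 7916 FPKM, and PDGFRA lay between 162 and 172 FPKM, while DLK1 was listed at 0 in every library and CD34 reached no more than 0.783 FPKM. Of 8 markers of mature adipocytes, ADIPOQ reached no more than 0.197 FPKM and LEP no more than 0.0368 FPKM, and their sum per library lay between 9.37 and 11.4 FPKM. The summed markers of endothelial cells lay between 3.297 and 4.27 FPKM, mostly VWF, and those of immune cells between 6.84 and 7.92 FPKM, mostly CD14, with the leukocyte marker PTPRC at 0.119 FPKM or less. The 4 of 5 muscle markers listed summed to 0.479 FPKM or less, and the 4 epithelial markers to 0.379 FPKM or less. In such bulk samples, fewer cells of a type and less RNA per cell cannot be told apart.

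All 5 synthetases were expressed well above the 3 transporters. By mean FPKM over the 6 libraries the order was ACSL4 (91.1 FPKM), ACSL5 (47.4 FPKM), ACSL3 (32.1 FPKM), ACSL6 (24.5 FPKM), ACSL1 (17.1 FPKM), SLC27A1 (3.31 FPKM), SLC27A3 (1.48 FPKM) and SLC27A4 (1.07 FPKM). ACSL4, which prefers arachidonic acid and other polyunsaturated fatty acids, lay above 95.2% of the 12422 genes that averaged 0.5 FPKM or more, and SLC27A4 above 9.24% of them. ACSL1 had the lowest level of the synthetases, above 71.3% of the same genes. The order was the same in every library for each of the 7 pairs of neighbours. The pairs were ranked on these same libraries, so no p is given for them. Over the 6 libraries together, the closest neighbours were ACSL3 and ACSL6, at a mean ratio of 1.32 (from 1.13 to 1.54). This depends on the group, since ACSL6 differed between them. Under agomir NC the means of ACSL3, ACSL6 and ACSL1 were 32.6, 21.6 and 17.2 FPKM, so there ACSL6 lay nearer to ACSL1. Under agomir they were 31.6, 27.3 and 17.0 FPKM. The widest step was that from ACSL1 to SLC27A1, at a mean ratio of 5.23 (from 3.80 to 6.42). SLC27A3 stood above SLC27A4 by a ratio of 1.14 to 2.298. FPKM of different genes also depend on the transcript models used, which were not given, so these ratios hold for the deposited estimates.

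ACSL6, a synthetase best known from the brain, was the member with the widest separation between the groups. It was at 27.5, 27.5 and 26.9 FPKM under agomir, and under agomir NC at 21.4, 21.1 and 22.4 FPKM. The groups did not overlap, and the gap between them was wider than the range of either. The means were 27.3 ± 0.353 FPKM under agomir and 21.6 ± 0.679 FPKM under agomir NC (SD, n = 3 each), a ratio of 1.26 and a difference of 5.68 FPKM. On the log2(FPKM + 0.5) scale, where 0.5 is a pseudocount, the difference was 0.33 (standard error 0.049). Its value in the agomir libraries varied by 1.29% (coefficient of variation), against 3.14% in the agomir NC libraries. As a further description of the same values, its ratio to ACSL3 was 0.857, 0.855 and 0.885 under agomir and 0.673, 0.649 and 0.669 under agomir NC, and its ratio to ACSL1 was 1.53, 1.72 and 1.59 against 1.32, 1.19 and 1.26. These ratios reuse the values on which the family was picked, and their separation adds no evidence to that of ACSL6 itself. The neighbouring protein-coding genes in the RefSeq table of ARS-UCD2.0, IL3 and MEIKIN, were listed at 0 in 5 of the 6 libraries each and at 0.0399 and 0.0534 FPKM in the remaining one. The summed markers of mature adipocytes lay apart between the groups, at 10.9, 11.3 and 11.4 FPKM under agomir and at 10.3, 10.0 and 9.37 FPKM under agomir NC. Of all genes tested, 10.9% were higher without overlap. The sum of the markers leaves out FABP4, an adipocyte gene held in another list, which went the other way. FABP4 was at 1.896 ± 0.400 FPKM under agomir and 2.89 ± 0.679 FPKM under agomir NC (SD, n = 3 each), with groups that overlapped. Of the 8 markers in the sum 5 were tested, and ADIPOQ and LEP were near 0. By mean over the 6 libraries LPL was the most abundant, between 3.48 and 4.33 FPKM. PPARG averaged 3.86 FPKM under agomir and 3.23 FPKM under agomir NC, without overlap. LPL averaged 3.83 FPKM under agomir and 3.64 FPKM under agomir NC, with groups that overlapped. The part of these markers in the difference of ACSL6 was not tested.

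**Figure D1:**
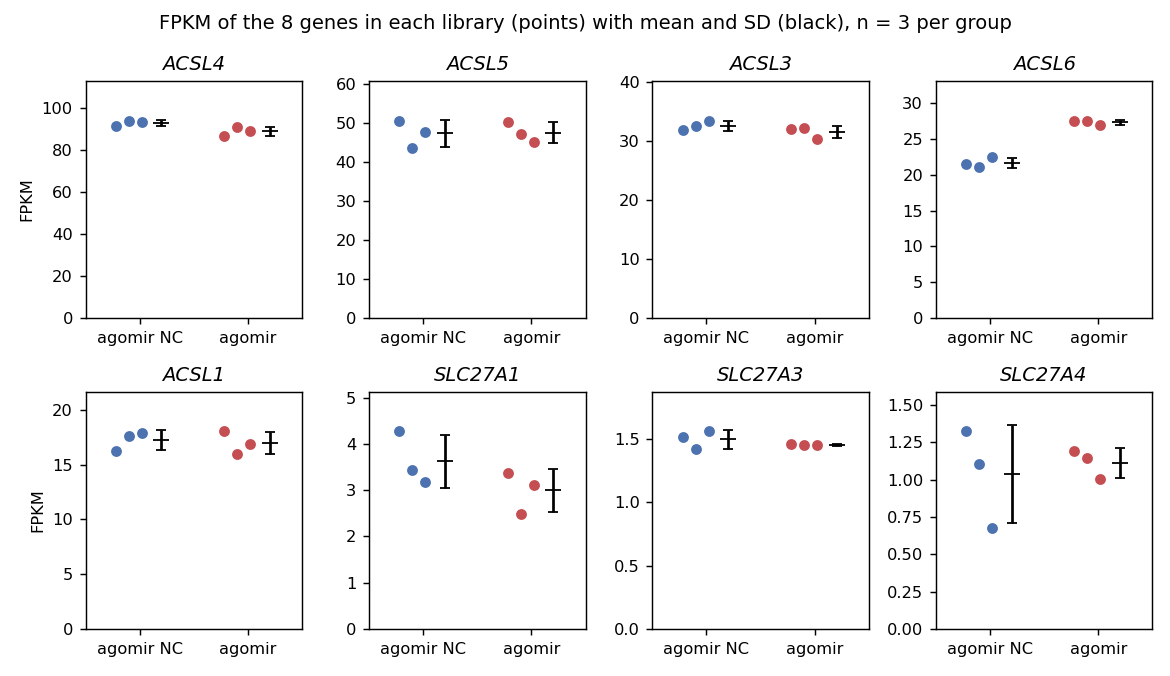
FPKM of the 8 genes in each library (points, linear axes from 0 with a range for each gene) with the mean and SD of the group (black), n = 3 agomir NC and n = 3 agomir libraries. The ACSL6 libraries under agomir lie between 26.9 and 27.5 FPKM and those under agomir NC between 21.1 and 22.4 FPKM, and the groups of ACSL4 are apart by less, while those of the other 6 genes overlap.

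None of the other 4 synthetases passed the test. ACSL4 was at 86.8, 91.1 and 89.5 FPKM under agomir and at 91.5, 94.2 and 93.5 FPKM under agomir NC. All agomir libraries lay below all agomir NC libraries, but the nearest pair was separated by less than the range within either group. The mean was 89.1 ± 2.17 against 93.1 ± 1.38 FPKM (SD, n = 3 each), and the log2 fold change of -0.063 (standard error 0.040) had an adjusted p of 0.606 in limma, with Benjamini-Hochberg adjustment over the genes tested. The 95% interval of the ratio was 0.8998 to 1.02.

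ACSL5, a synthetase found on mitochondria and the endoplasmic reticulum, was at 50.2, 47.2 and 45.0 FPKM under agomir and at 50.6, 43.6 and 47.7 FPKM under agomir NC. ACSL3, which sits on the endoplasmic reticulum and on nascent lipid droplets, was at 32.1, 32.2 and 30.4 FPKM against 31.8, 32.5 and 33.5 FPKM. ACSL1 was at 18.0, 16.0 and 16.9 FPKM against 16.2, 17.6 and 17.8 FPKM. In all of these genes the groups overlapped. The difference of the means was smaller than the SD of either group in ACSL5 and ACSL1, and in ACSL3, at -1.02 FPKM, it was about the SD of 1.005 FPKM under agomir and above that of 0.831 FPKM under agomir NC. The log2 fold changes were 0.0063 for ACSL5 (95% interval of the ratio 0.91 to 1.11), -0.046 for ACSL3 (0.899 to 1.04) and -0.023 for ACSL1 (0.89 to 1.09), with limma's adjusted p between 0.773 and 0.983. All of these intervals include the ratio 1. The direction of ACSL5 turned with median-ratio scaling of the libraries (-0.011), without agomir replicate 1 (-0.035) and without agomir NC replicate 2 (-0.050). ACSL1 turned without agomir replicate 2 (0.018) or agomir NC replicate 3 (0.0017).

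The total of the synthetases overlapped between the groups. The summed FPKM of the 5 genes was 215, 214 and 209 under agomir and 212, 209 and 215 under agomir NC, or 212 ± 3.22 against 212 ± 2.95 FPKM (SD, n = 3 each). ACSL6 was higher by 5.68 FPKM, and the other 4 synthetases together lower by 5.12 FPKM, most of it in ACSL4 with a difference of -3.995 FPKM. None of these 4 passed the test, and a link of their sum to ACSL6 was not tested. Within that sum, ACSL6 held 12.8%, 12.9% and 12.9% of the summed FPKM under agomir and 10.1%, 10.1% and 10.4% under agomir NC. ACSL4 held 40.4%, 42.6% and 42.9% against 43.3%, 45.1% and 43.5%. Both shares were apart without overlap, in opposite directions, and shares of one sum are tied to each other, so a larger share of one gene lowers those of the rest. The share of ACSL6 reuses the values on which the family was picked, and that of ACSL4 depends on them. Their separation therefore adds no evidence to that of the genes themselves. The shares of ACSL5, at 22.3 ± 0.945% against 22.3 ± 1.52%, of ACSL3, at 14.9 ± 0.256% against 15.4 ± 0.2997%, and of ACSL1, at 7.99 ± 0.477% against 8.14 ± 0.409% (SD, n = 3 each), overlapped between the groups.

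**Figure D2:**
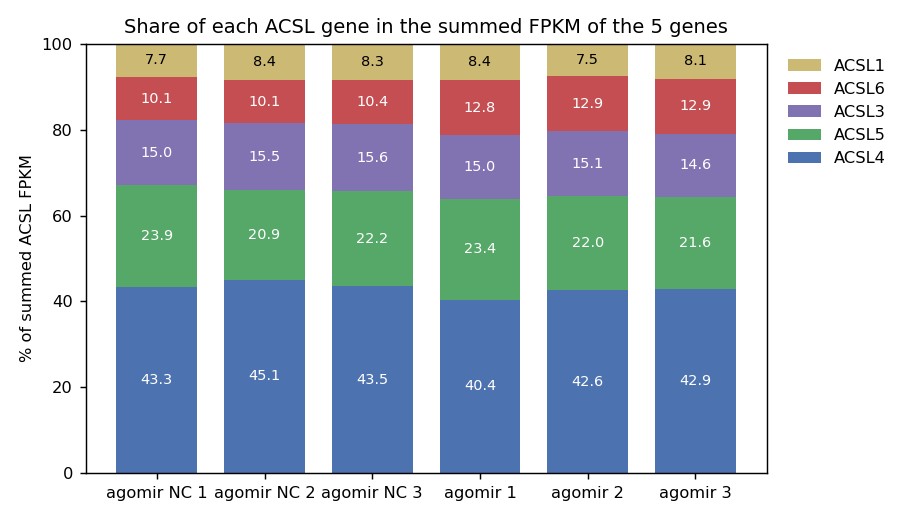
Share of each ACSL gene in the summed FPKM of the 5 genes, in percent, in the 3 agomir NC and the 3 agomir libraries. ACSL6 holds between 10.1% and 10.4% under agomir NC and between 12.8% and 12.9% under agomir, and ACSL4 holds the largest share in all 6 libraries.

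The transporters were low, and none passed the test. SLC27A1 (FATP1) was at 3.38, 2.49 and 3.11 FPKM under agomir and at 4.27, 3.43 and 3.17 FPKM under agomir NC, so the groups overlapped by a library on each side. The log2 fold change of -0.24 (standard error 0.13) had an adjusted p of 0.553 in limma, and the interval of the ratio, 0.6896 to 1.04, includes the ratio 1. The log2 fold change was -0.13 without agomir replicate 2 and -0.13 without agomir NC replicate 1, so its size rests on these libraries. As a share of the summed FPKM of the 3 transporters, SLC27A1 was lower without overlap. It held 56.0%, 48.9% and 55.9% under agomir and 60.1%, 57.6% and 58.6% under agomir NC. The sum itself and the shares of SLC27A3 and SLC27A4, to which this share is tied, overlapped between the groups. SLC27A3 (FATP3), which acts mainly as a synthetase inside the cell, was the steadiest transporter, at 1.46, 1.45 and 1.45 FPKM against 1.51, 1.42 and 1.56 FPKM. SLC27A4 (FATP4), an acyl-CoA synthetase of the endoplasmic reticulum, was at 1.19, 1.14 and 1.00 FPKM under agomir and at 1.33, 1.1045 and 0.6798 FPKM under agomir NC. Its agomir NC libraries spanned the agomir libraries on both sides, with a coefficient of variation of 31.6%. Its log2 fold change of 0.091 (standard error 0.17) became -0.088 without agomir NC replicate 3, the library at 0.6798 FPKM. The log2 fold change of SLC27A3 was -0.0296, with a standard error of 0.11. Limma's adjusted p was 0.95 for SLC27A3 and 0.891 for SLC27A4.

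All 8 members averaged 0.5 FPKM or more and were in the limma fit, where the test of ACSL6 is not used. Of the 7 others, 0 had an adjusted p under 0.05, where 1 of 12422 genes did (0.00805%). At an unadjusted p of 0.05, 0 of the 7 were higher, where 6.63% of all genes were, and 0 were lower, where 4.31% were. Without overlap between the groups, 0 of the 7 were higher, where 10.9% of all genes were, and 1 was lower, ACSL4, where 6.36% were. The median log2 fold change was -0.0296 over the 7 members other than ACSL6 and 0.013 over all genes tested, and 5 of these 7 members, against 44.9% of all genes, had a value below 0. Of all genes, 824 were higher and 535 lower at an unadjusted p of 0.05, but 646 were higher and 718 lower with median-ratio scaling of the libraries, with all 12422 genes tested. With the trend across gene span taken out, a setting added after the data were seen, 642 were higher and 647 lower among the 11255 genes that have a span, of which 767 and 483 were without that step.

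Across the libraries the members followed different patterns. Over the 28 pairs, Pearson's r of the log2(FPKM + 0.5) values across the 6 libraries lay between -0.79, for ACSL4 with ACSL6, and 0.56, for ACSL5 with SLC27A3. These values describe 6 points that share the library's normalization and the treatment. Among the 11251 other tested genes with a symbol, those whose pattern was most like that of ACSL6 were LRRC8A (r = 0.9986), which encodes a subunit of the volume-regulated anion channel, GBA2 (r = 0.995), a glucosylceramidase, DNAJC7 (r = 0.991), a co-chaperone, TRAPPC4 (r = 0.988), a subunit of a vesicle tethering complex, and IL18R1 (r = 0.987), a cytokine receptor. LRRC8A was at 38.9, 38.5 and 38.1 FPKM under agomir and at 33.1, 33.1 and 34.3 FPKM under agomir NC. Like ACSL6, these 5 genes were higher in every agomir library than in any agomir NC library, with log2 fold changes between 0.17 and 0.61. With 6 libraries in groups of 3, any gene with tight groups that lie apart reaches a high r.

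The closest relatives were other acyl-CoA synthetase and SLC27A genes. Of 16 such genes, 7 were tested, and at an unadjusted p of 0.05 in limma 0 were higher, against 6.63% of all genes, and 0 were lower, against 4.31%. Other settings called 0 or 1 of them in each direction, namely ACSF3 (lower, no variance trend), ACSS3 (higher, without agomir replicate 3) and ACSS1 (lower, without agomir NC replicate 1). ACSF3 was lower without overlap, at 2.78 ± 0.218 against 3.25 ± 0.2198 FPKM (SD, n = 3 each). SLC27A2 and SLC27A6 were listed at 0 in every library, SLC27A5, known as the bile acid-CoA ligase of the liver, reached no more than 0.421 FPKM, and ACSBG1 and ACSBG2 reached no more than 0.0271 FPKM. The most abundant was ACSF2, a mitochondrial synthetase, at 40.3 ± 0.697 FPKM under agomir and 40.9 ± 0.799 FPKM under agomir NC (SD, n = 3 each), a level between those of ACSL5 and ACSL3. None of the tested genes in this list was under an adjusted p of 0.05, and their median log2 fold change was -0.022.

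Around the synthetases, 68 genes of fatty acid uptake and binding, acyl-CoA binding, thioesterases, esterification, the carnitine shuttle and the other synthetases were followed, of which 48 were tested. At an unadjusted p of 0.05 in limma, 2 were higher (4.17%, against 6.63% of all genes) and 3 were lower (6.25%, against 4.31% of all genes), and 0 passed the adjusted threshold. The genes that were lower were FABP3, FABP4 and FABP5, which encode fatty acid binding proteins that carry fatty acids through the cytosol. Which genes were lower depended on the setting. With median-ratio scaling 1 was higher and 7 were lower, 14.6% against 5.78% of all genes, with ACOT13, DBI, GOT2 and LPCAT3 added. Without agomir NC replicate 1 the 6 that were lower, 12.5% against 4.797% of all genes, held ACOT4, ACSS1, DBI and LPCAT3. None of these added genes encodes a fatty acid binding protein of the FABP family. Without agomir replicate 3, 1 was lower, 2.08% against 3.62% of all genes. FABP5 was at 51.9, 53.2 and 59.9 FPKM under agomir and at 65.8, 60.8 and 72.3 FPKM under agomir NC, without overlap (log2 fold change -0.27, standard error 0.073, adjusted p = 0.305 in limma). FABP3 was at 24.6, 20.1 and 21.7 FPKM against 24.8, 26.2 and 25.5 FPKM, without overlap (log2 fold change -0.20, standard error 0.072, adjusted p = 0.37 in limma). FABP4, the adipocyte form, was at 1.896 ± 0.400 against 2.89 ± 0.679 FPKM (SD, n = 3 each), with groups that overlapped (adjusted p = 0.363 in limma). In the same list of 7 uptake and binding genes, CAV1, the gene of the caveolar coat protein, was the most abundant, at 244 ± 10.2 against 236 ± 15.2 FPKM, and CD36, the fatty acid translocase, was at 5.19 ± 0.679 against 5.58 ± 0.801 FPKM (SD, n = 3 each). Neither passed the test, and their groups overlapped. The remaining genes of the list did not pass it either but were lower without overlap, CAVIN1, a partner of CAV1 in caveolae, at 142 ± 1.896 against 147 ± 2.15 FPKM, and GOT2 at 31.1 ± 1.55 against 33.8 ± 1.75 FPKM (SD, n = 3 each). In all, 6 of the 7 genes had a log2 fold change below 0, where 44.9% of all genes did, and 4 were lower without overlap, where 6.36% of all genes were. With a list of 7 genes that holds the 3 FABP genes already named, these shares are not read as a result about the list. Over all 48 tested genes around the synthetases, 4 were higher and 6 were lower without overlap, where 10.9% and 6.36% of all genes were. FABP3 was no longer past the unadjusted threshold without agomir replicate 2 (log2 fold change -0.14), agomir replicate 3 (-0.19) or agomir NC replicate 2 (-0.19), nor was FABP4 without agomir replicate 3 (-0.38) or agomir NC replicate 1 (-0.35).

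The enzymes that use or release acyl-CoA showed 2 genes past the unadjusted threshold, which 6.63% of all genes passed as higher and 4.31% as lower. They were 1 of 7 tested thioesterases (14.3%, higher) and 1 of 19 tested esterification genes (5.26%, higher), and with lists of this size neither share is read as a result about its list. ACOT8, a peroxisomal thioesterase that splits acyl-CoA, was at 6.95, 6.74 and 8.15 FPKM under agomir and at 7.003, 4.95 and 5.91 FPKM under agomir NC (log2 fold change 0.28, standard error 0.12, adjusted p = 0.445 in limma). GPAT3, which starts glycerolipid synthesis from acyl-CoA, was at 6.26, 6.41 and 5.52 FPKM against 5.56, 4.70 and 4.60 FPKM (log2 fold change 0.27, standard error 0.095, adjusted p = 0.374 in limma). The groups of both genes overlapped, since for ACOT8 the highest agomir NC library lay above 2 agomir libraries and for GPAT3 above 1. Across 16 other settings ACOT8 was past the unadjusted threshold in 8 and GPAT3 in 12. ACOT8 lost it without agomir replicate 1 (log2 fold change 0.31), agomir replicate 3 (0.20), agomir NC replicate 2 (0.16) or agomir NC replicate 3 (0.28), and with median-ratio scaling (0.26), among others. GPAT3 lost it without agomir replicate 1 (0.25), agomir replicate 2 (0.23), agomir NC replicate 2 (0.24) or agomir NC replicate 3 (0.22). The most abundant genes of the remaining lists did not pass it with the settings used here, but some did with others. DBI passed it with median-ratio scaling (log2 fold change -0.12) and without agomir NC replicate 1 (-0.16). LPCAT3 passed it with median-ratio scaling (-0.12), without agomir replicate 2 (-0.13), without agomir NC replicate 1 (-0.13) and after the gene span step (-0.12). CPT2 passed it when no filter was set (0.091). DBI, the acyl-CoA binding protein, was at 119 ± 1.68 FPKM under agomir and 129 ± 9.14 FPKM under agomir NC, the thioesterase ACOT9 at 30.6 ± 0.898 against 30.8 ± 1.75 FPKM, and LPCAT3, which places polyunsaturated acyl chains in phospholipids, at 24.9 ± 0.923 against 26.7 ± 0.987 FPKM (SD, n = 3 each). In the carnitine shuttle, which takes acyl groups into mitochondria, 0 of 3 tested genes passed it, as did 0 of 5 in acyl-CoA binding, which at the shares of all genes is no result about lists so short. The median log2 fold change of the shuttle was 0.069. The most abundant of them, CPT2, which releases acyl groups from carnitine inside the mitochondrion, was at 27.99 ± 0.0888 FPKM under agomir and 26.2 ± 0.201 FPKM under agomir NC (SD, n = 3 each), without overlap (log2 fold change 0.091, standard error 0.045, adjusted p = 0.502 in limma). Other genes of these lists lay apart without passing the unadjusted threshold with the settings used here. ACBD3 was higher, at 33.4 ± 0.620 against 31.9 ± 0.596 FPKM, as was ACBD5, at 11.1 ± 0.431 against 10.3 ± 0.433 FPKM. AGPAT3 was higher, at 18.7 ± 0.608 against 17.7 ± 0.202 FPKM, and AGPAT4 was lower, at 6.78 ± 0.416 against 7.53 ± 0.239 FPKM (SD, n = 3 each).

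**Figure D3:**
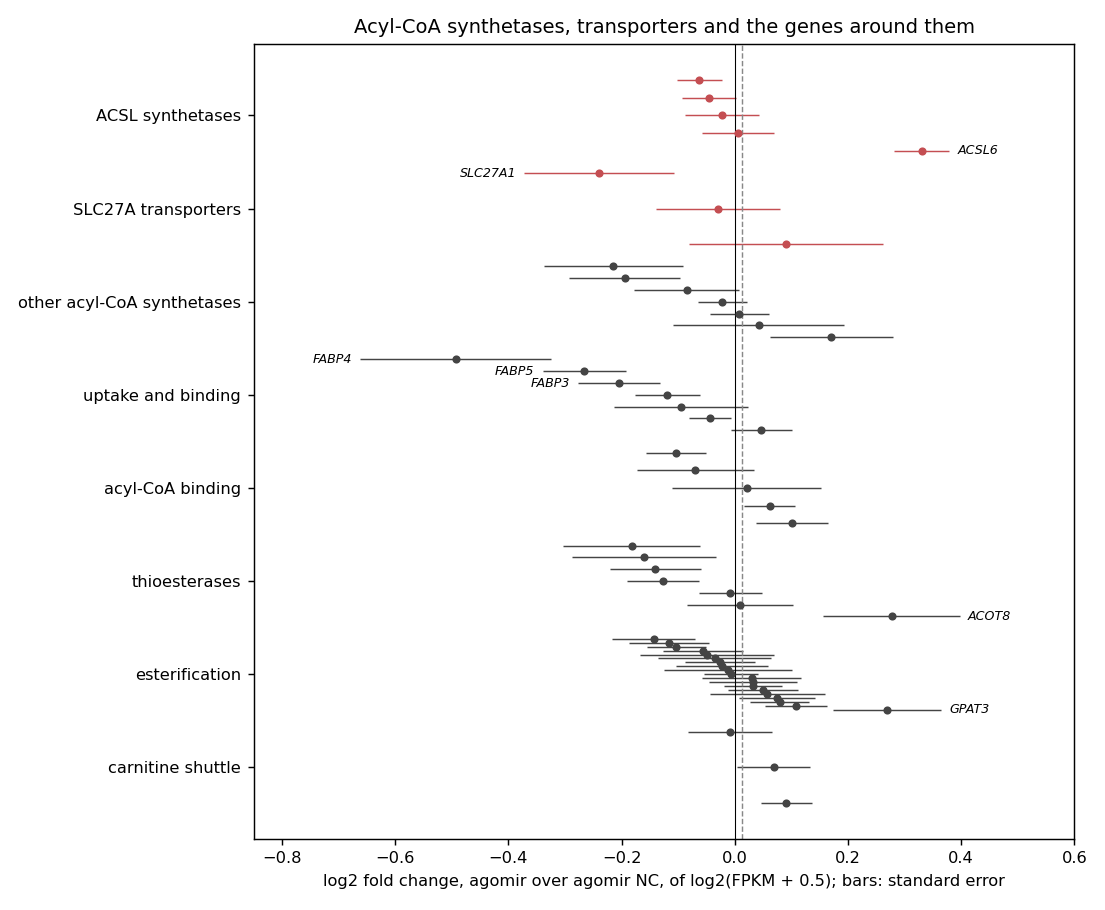
Log2 fold change, agomir over agomir NC, of log2(FPKM + 0.5) for the 8 members (red) and the 48 tested genes around them (grey), with bars for the standard error of limma (3 against 3 libraries). The solid line marks 0 and the dashed line the median of all genes tested, 0.013, and ACSL6 at 0.33 lies furthest to the right.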

How the data were processed

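The values deposited for each library were FPKM, 1 per gene. The submitters' processing notes name fastp, HISAT2, StringTie and the build ARS-UCD1.2, and give no versions. Ratios of 2648 low genes between 2 libraries put at most 10 in a bin 0.002 wide, so whole reads could not be recovered.

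The 12422 genes whose FPKM averaged 0.5 or more across the 6 libraries were taken as log2(FPKM + 0.5), which understates the fold change of low genes. The groups were compared with limma 3.58.1 (R 4.3.3), two-sided, with a variance trend and no replicate term, and p-values were adjusted by Benjamini-Hochberg over all genes tested. With 3 libraries a side an exact test has a smallest p of 0.1, and it was not used. The model was checked on simulated data. The alternatives changed the pseudocount (0.1 or 1) or the filter (none, or 1 FPKM), or used median-ratio scaling, quantile values, no trend, array weights, the replicate block, each library left out, and, added after seeing the data, a fold change with no pseudocount and a gene span correction (lowess span 0.3).

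The members, lists and tests were chosen with earlier results of these data known. The text names the members, list genes past an unadjusted p of 0.05 or most abundant in their list, and the 5 genes with the highest r to ACSL6. Other genes were named after their values were seen. Gene neighbours and spans came from RefSeq (ARS-UCD2.0, all 8 members matched by symbol). No sequences were used here.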

Additional observations from a re-analysis of the deposited data

How the results depend on the processing

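Of 136 values of the members' log2 fold changes under other settings, 32 equal the reported ones by construction, since the filter, the variance trend and the replicate block change only the test. Of the other 104, 96 kept their direction and 8 turned. In the 16 settings with a test, 0 adjusted p of the 7 members other than ACSL6 were under 0.05 in limma, and 1 unadjusted p was. ACSL6 stayed between 0.30 and 0.35. ACSL5, at 0.0063, turned to -0.011 with median-ratio scaling, -0.0027 with array weights and -0.018 after the gene span trend was removed, an alternative chosen after seeing the data, and ranged from -0.050 to 0.055 with 1 library left out. ACSL1 ranged from -0.067 to 0.018 with 1 library left out, turning without agomir replicate 2 (0.018) or agomir NC replicate 3 (0.0017), SLC27A4 from -0.088 to 0.23 and SLC27A1 from -0.32 to -0.13. The cause was not tested. The order of the levels was the same when ranked by the agomir NC libraries. It held within each library, so neither scaling nor leaving 1 out could change it.

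The gene past the adjusted threshold (1 of all genes tested) did not appear when no filter was set, when no variance trend was used or with the replicate block, each with 0 genes in limma, where 966, 760 and 738 genes were higher and 638, 489 and 522 lower at an unadjusted p of 0.05. With 1 library left out, 0 to 2 genes passed. The count of members lower at an unadjusted p of 0.05 was 0, and 1 after the gene span trend was removed (ACSL4, adjusted p = 0.36 in limma). The genes around them, 2 higher and 3 lower, were 1 and 7 with median-ratio scaling (lower 14.6%, against 5.78% of all genes), 1 and 4 with quantile normalization (8.33% against 5.06%), 1 and 4 without the variance trend (8.33% against 3.94%), and 2 and 6 after the gene span trend was removed (12.5% against 5.75%). The shares of all genes higher in these settings were 5.2005%, 5.603%, 6.12% and 5.704%, against 2.08%, 2.08%, 2.08% and 4.17% here. With 1 library left out, 0 to 2 were higher, 0 without agomir replicate 1 or agomir NC replicate 2, and 1 to 6 were lower, 1 without agomir replicate 3 and 6 without agomir NC replicate 1. FABP5 passed in all 16 settings, FABP3 in 13 and FABP4 in 14.

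Same-numbered libraries correlated in their deviations from the group means at -0.051, 0.053 and 0.039, and 2 of 6 libraries correlated best with their own number. These values show no pairing by number. They cannot tell whether same-numbered libraries were handled together, which is not stated. With the replicate block, limma placed 0 of the 7 other members below an unadjusted p of 0.05. The unknown depth limits the precision of the transporters near 1 FPKM.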

Other observations

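Among the markers of mature adipocytes, 5 of 8 were tested. CEBPA, at a log2 fold change of 0.29, averaged 0.632 FPKM under agomir and 0.438 FPKM under agomir NC. It passed the filter of 0.5 FPKM only through the agomir libraries, so its direction is not read as a result. The other 4, LPL, CIDEA, PLIN1 and PPARG, had log2 fold changes above 0, between 0.058 and 0.23. Of all genes tested, 55.1% were above 0. With the filter at 1 FPKM, CEBPA was not tested, and all 4 tested markers were above 0. LPL was at -0.023 without agomir replicate 2, and CEBPA was at 0.10 without agomir NC replicate 3. PPARG, the nuclear receptor that drives adipocyte differentiation and controls ACSL1 and SLC27A1, was at 3.99, 3.69 and 3.91 FPKM under agomir and at 3.39, 3.34 and 2.96 FPKM under agomir NC. It was higher in every agomir library than in any agomir NC library (log2 fold change 0.23, standard error 0.090, adjusted p = 0.407 in limma). The members ACSL1 and SLC27A1 had log2 fold changes of -0.023 and -0.24, with groups that overlapped. The part of PPARG in the level of either was not tested. PPARG was the 1 of the 5 past an unadjusted p of 0.05 and higher, where 6.63% of all genes were, and 0 were lower. It was not past it without agomir replicate 1 (0.21), agomir replicate 3 (0.22) or agomir NC replicate 3 (0.17), nor after the gene span step (0.20). None of the 5 passed the adjusted threshold. The direction was not shared by all adipocyte genes. Below the filter, ADIPOQ was at 0.115 ± 0.0607 FPKM under agomir and 0.165 ± 0.0277 FPKM under agomir NC (SD, n = 3 each), and CIDEC, at 0 in 4 of the 6 libraries, had means of 0.0652 and 0.0767 FPKM. LEP, also at 0 in 4 of the 6 libraries, was higher under agomir, with means of 0.0123 and 0.00595 FPKM. With no filter, 6 of the 8 had a log2 fold change above 0. FABP4, held in another list, had a log2 fold change of -0.49. Of the 10 tested stromal markers, 4 had a log2 fold change above 0 and 6 below 0. At an unadjusted p of 0.05, 0 of the 10 were higher, against 6.63% of all genes, and 1 was lower, against 4.31%. This was DCN, the gene of the matrix proteoglycan decorin, at 2863 ± 31.3 FPKM under agomir and 3114 ± 129 FPKM under agomir NC (SD, n = 3 each, log2 fold change -0.12, adjusted p = 0.376 in limma). DCN did not pass that threshold when no filter or no variance trend was used, each with the fold unchanged, or without agomir replicate 1 (-0.11) or agomir replicate 3 (-0.12). Quantile normalization gives DCN and COL3A1 the same value in every library and says nothing about them. Other stromal markers passed in other settings. ENG was lower with median-ratio scaling, with no filter and after the gene span step, THY1 was lower without agomir NC replicate 1, and ZNF423 was higher with no variance trend, so 0 to 2 were lower and 0 or 1 higher over 16 other settings.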
